A study of Mus musculus with 47 samples.

Results

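How the response of the mouse hypothalamus to fibroblast growth factor 1 (FGF1) changed between Day 1 and Day 5 after a single injection was read from bulk RNA-seq counts of 30 of the 47 libraries of the series. The quantity of interest for each gene was the FGF1 effect on Day 5 minus the FGF1 effect on Day 1, each effect being the log2 fold change (log2 FC) between FGF1-treated and vehicle-treated mice killed on the same day. All mice were male ob/ob mice, which lack functional leptin and are obese, and the labels give an age of 11 weeks for all of them. A single intracerebroventricular (icv) dose of 3 µg FGF1 was given to 10 mice killed on Day 1 and 9 killed on Day 5. The vehicle groups, pair-fed to the FGF1-treated mice so that they ate the same amount, held 4 mice on Day 1 and 7 on Day 5, all of them labelled non-diabetic. The labels of the FGF1-treated mice give no diabetic state. A difference in that state cannot be told apart from the effect of FGF1. Each library came from the hypothalamus of 1 mouse. Because leptin is missing in every group, the comparison says nothing about mice with leptin.

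FGF1 is a secreted growth factor that binds FGF receptors and switches on the ERK cascade, whose targets include immediate early genes and the inhibitors that later shut the cascade down. In the hypothalamus the receptors are found on astrocytes, which regulate extracellular ions and transmitters, on tanycytes and ciliated ependymal cells, which line the third ventricle, and on cells of the oligodendrocyte lineage, which pass from precursor through a newly formed stage to the myelinating cell. Astrocytes that respond to injury or growth factors become reactive, a state known for intermediate filament, protease inhibitor and matrix genes.

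Before the results, some facts on the libraries are needed. The 4 vehicle libraries of Day 1 held 37.3 to 42.9 M counts (M, 1000000), and those of Day 5 8.01 to 9.86 M. In the FGF1 groups, 1 library of Day 1 (replicate 1) held only 1.24 M counts and the other 9 held 27.4 to 47.1 M, whereas on Day 5 7 libraries held 7.695 to 9.74 M and the remaining 2 (replicates 8 and 9) 27.9 and 30.01 M. Every library of a day was prepared in 1 preparation, different from that of the other day, so day, cohort and preparation cannot be told apart. Each FGF1 effect lies within 1 preparation, but levels were not comparable between the days. Among vehicle-treated mice, 513 of the 14221 genes were over 4-fold higher on Day 5 than on Day 1 and 149 over 4-fold lower (662 genes, 4.66% of those tested). The gene of ribosomal protein Rps10, for example, was at 1.55 to 2.52 CPM (counts per 1000000, after scaling for library composition) on Day 1 and at 101 to 118 CPM on Day 5, and the mitochondrially encoded COX3 at 0.0465 to 0.593 and 34.0 to 52.8 CPM. Of the 2247 genes whose FGF1 effect differed between the days, 102 (4.54%) were among those 662. The FGF1 effect on a gene is therefore read only from levels within a day, and marker sums of both days serve to describe the libraries. As to the dissection, the summed CPM of 12 markers of forebrain outside the hypothalamus ran from 142 to 157 with vehicle and 134 to 172 with FGF1 on Day 1, against 262 to 447 and 171 to 351 on Day 5. The hypothalamic peptide genes Agrp and Pomc were present in every library, at 5.05 CPM or more for Agrp and 4.26 CPM or more for Pomc. Since these are bulk samples, fewer cells of a type and less RNA per cell cannot be told apart in any of the results.

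**Figure D1:**
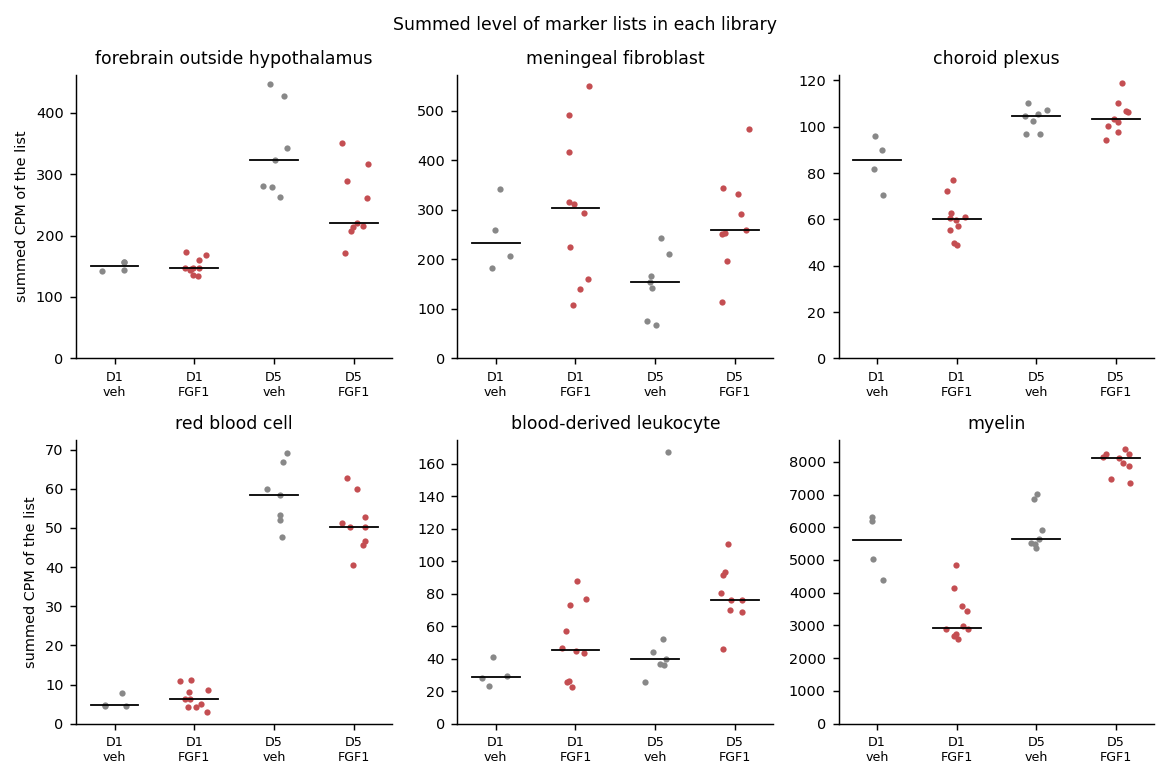
Summed normalized CPM (vertical axes, from 0) of 6 lists of marker genes in every library, for vehicle-treated (grey) and FGF1-treated (red) mice on Day 1 (D1) and Day 5 (D5), with the group median as a line. Forebrain and red blood cell markers were higher in the Day 5 preparation than in that of Day 1, 1 vehicle library of Day 5 reached 167 CPM of leukocyte markers, and the summed myelin genes of the Day 5 FGF1 group (7355 to 8381 CPM) lay above all vehicle libraries of that day (5353 to 7010 CPM).

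A gene was called when its adjusted p (edgeR's quasi-likelihood test, Benjamini-Hochberg) was under 0.05 and its log2 FC, or the difference of 2 log2 FCs, was above 0.5 in absolute value. The FGF1 effect was higher on Day 5 than on Day 1 for 1035 genes, 7.28% of the 14221 tested, and lower for 1212 genes, 8.52%. On Day 1 alone 1631 genes (11.5%) were higher and 1145 (8.05%) lower with FGF1, and on Day 5 186 (1.31%) were higher and 33 (0.232%) lower. These shares are the background for the counts of called list members below. The balance on Day 1 depended on the processing. With the scaling of DESeq2 in edgeR 1416 genes were higher and 1373 lower on Day 1, and with the 30 libraries alone 1412 and 1427. The medians over all genes were 0.01 on Day 1, -0.01 on Day 5 and -0.02 for the difference, values that the scaling itself draws towards 0. With DESeq2 in place of edgeR, 2123 of the 2247 differences were called again, and 1692 were called again without vehicle replicate 2 of Day 1, the lowest number among the alternatives that left out 1 mouse.

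The 3 calls of each gene (Day 1, Day 5 and difference) gave the following patterns. Most of the called genes faded: 1781 were called on Day 1 and not on Day 5, with a called difference towards 0. Another 43 genes were called with the same sign on both days but with a smaller effect on Day 5 (reduced), 64 were called on both days with no called difference (persisted), and 1 gene had a larger effect on Day 5 (grew). The effect appeared late, on Day 5 only, for 50 genes. A turn from lower to higher was called for 32 genes, and a turn from higher to lower for 0 genes in this fit, against 0 to 3 genes in the alternatives that kept the fold threshold. For 340 genes only the difference was called. The remaining 884 called genes (855 on Day 1, 29 on Day 5) had no called difference and are unresolved.

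**Figure D2:**
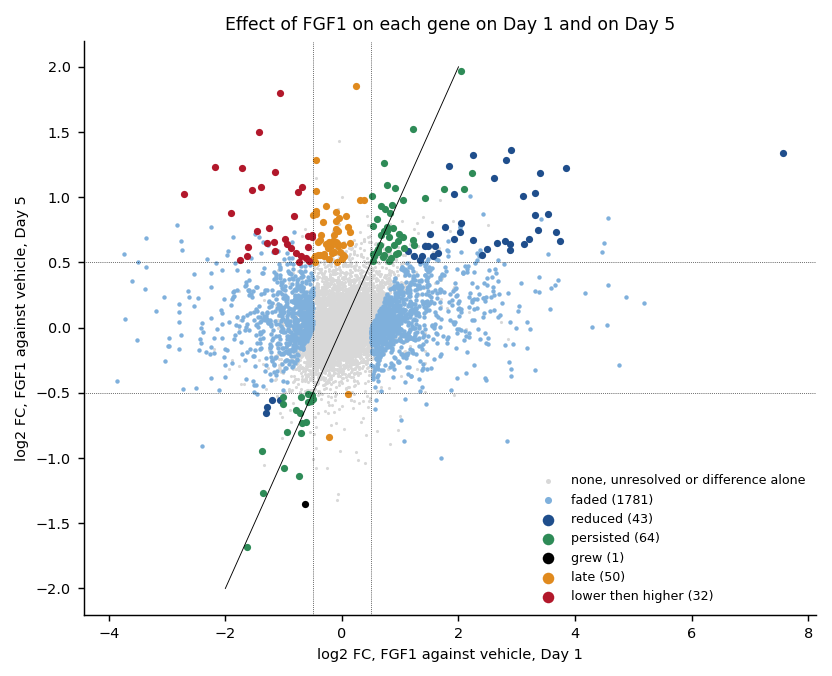
Log2 FC of FGF1 against vehicle on Day 1 (horizontal axis) and on Day 5 (vertical axis), 1 point per gene for all 14221 genes, coloured by pattern; dotted lines mark 0.5 and -0.5 and the solid line equal effects. The Day 1 axis runs much wider than the Day 5 axis, the 32 genes that turned lie at upper left, and no gene was called higher on Day 1 and lower on Day 5.

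Of the 32 genes that turned from lower to higher, 3 were on the list of newly formed oligodendrocyte genes, 4 on that of myelin genes, 2 on that of meningeal fibroblast genes and 1 on that of reactive astrocyte genes. Over the 32 genes the median log2 FC was -1.10 on Day 1 and 0.70 on Day 5, and the differences ran from 1.08 to 3.73. The FGF1-treated and vehicle-treated mice did not overlap on Day 1 for 19 of them, on Day 5 for 22, and on both days for 13. As the genes were picked by their calls on both days, part of this separation follows from the choice. On both days the sign of all 32 was the same under every alternative that tested them, and 8 (among them Fbln5, Gpr17, Mal, Nnat and Tns3) kept all 3 calls in every alternative with a fold threshold. A minimum of 10 counts in every library left only 15 of the 32 in the test, all called the same way. Without the 2 Day 5 vehicle libraries highest in forebrain markers, 22 of the 32 kept all 3 calls.

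Gpr17, an orphan receptor of the committed, not yet myelinating oligodendrocyte, lies at chr18:31942997-31949636 (GRCm38). Gpr17 read 27.9, 19.4, 55.2 and 45.4 CPM in the vehicle-treated mice of Day 1 and 9.56 to 47.7 CPM (median 15.3) with FGF1. Vehicle-treated mice of Day 5 had 38.6 to 48.01 CPM (median 43.1), and FGF1-treated mice 116 to 176 CPM (median 147). On Day 5 all 9 FGF1-treated mice were above all 7 vehicle-treated mice, whereas on Day 1 the groups overlapped, FGF1 replicate 6 standing at 47.7 CPM and the next highest FGF1 library at 19.6 CPM. Its log2 FC went from -1.07 ± 0.23 to 1.80 ± 0.22, a difference of 2.86 ± 0.31 (adjusted p = 6.8e-10). Lims2, which codes for a focal adhesion adaptor and also turned, shares exon sequence with Gpr17 on the opposite strand, and the strand setting of the counting is not given in the sources used here. Enpp6, a choline phosphodiesterase that marks oligodendrocytes as they start to form myelin, is at chr8:46986887-47096762. On Day 1 Enpp6 stood at 11.2, 15.8, 8.401 and 9.35 CPM in the vehicle-treated mice and at 1.94 to 7.55 CPM (median 4.19) in the FGF1-treated mice. On Day 5 Enpp6 ran from 9.18 to 17.8 CPM (median 11.2) with vehicle and from 27.5 to 46.5 CPM (median 38.5) with FGF1. Neither day showed any overlap, with the FGF1 group below on Day 1 and above on Day 5. The log2 FC of Enpp6 moved from -1.43 ± 0.23 to 1.499 ± 0.22, a difference of 2.93 ± 0.32 (adjusted p = 5.1e-10). Neu4, a sialidase of the same stage, followed the same course without overlap on either day, from -1.24 ± 0.13 to 0.77 ± 0.12, a difference of 2.01 ± 0.18 (adjusted p = 2.4e-12).

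Of the 12 tested newly formed oligodendrocyte genes (14 listed), the calls were 2 higher and 4 lower on Day 1, 8 and 0 on Day 5, and 8 and 1 on the difference, with medians of -0.20 on Day 1 and 0.64 on Day 5. Besides the 3 genes that turned, 4 appeared late: Bmp4, a growth factor made by these cells, the transcription factor gene Nkx2-2, Itpr2 and Fyn. Bcas1 was higher on both days, from 0.61 to 0.83. The summed CPM of the list ran from 469.7 to 534 with vehicle and 486 to 596 with FGF1 on Day 1, and from 407 to 495 and 679 to 855 on Day 5, so only the Day 5 sums were apart. Against the background of 7.28% of all genes with a higher effect on Day 5, 8 of 12 members were called so. The 12 precursor genes gave fewer calls: 0 on either day and 3 higher on the difference (Pdgfra, Tnr and Matn4). At an unadjusted p under 0.05, 8 of the 12 passed on Day 1 and 4 on Day 5, and DESeq2 called 2 and 0. The summed CPM of the precursor list was nevertheless apart on Day 5, from 919 to 1084 with vehicle and 1121 to 1221 with FGF1. Pdgfra, the receptor of the precursor's mitogen, had a log2 FC of -0.49 and 0.08, difference 0.58 ± 0.12, adjusted p = 0.00016. Cspg4, another defining precursor gene, was not called, with a difference of 0.42 (95% interval 0.04 to 0.79), and the lineage factor genes Olig2 and Sox10 had log2 FCs of 0.42 to 0.44 and 0.16 to 0.49 on the same 2 days.

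All 20 myelin genes on the list were tested: the calls were 2 higher and 14 lower on Day 1, 6 and 0 on Day 5, and 16 and 2 on the difference, with medians of -0.70 on Day 1 and 0.32 on Day 5. The shares over all genes were 8.05% lower on Day 1, 1.31% higher on Day 5 and 7.28% higher on the difference. On Day 1 Mal stood at 243, 446, 286 and 324 CPM in the vehicle-treated mice and at 78.7 to 177 CPM (median 91.3) in the FGF1-treated mice. Day 5 vehicle libraries held 276 to 349.6 CPM (median 305) and FGF1 libraries 410.5 to 548 CPM (median 478). Mal, a lipid raft protein of compact myelin, moved from -1.61 ± 0.14 to 0.62 ± 0.13, a difference of 2.23 ± 0.20 (adjusted p = 1.7e-12), with no overlap on either day. Cnp and Cldn11 turned as well (-0.62 and 0.54, difference 1.16 ± 0.14, adjusted p = 6.2e-09 for Cnp and -0.87 and 0.61, difference 1.47 ± 0.28, adjusted p = 7e-05 for Cldn11). The Day 5 call of Cldn11 was lost under 9 alternatives and that of Cnp without the 2 Day 5 vehicle libraries highest in forebrain markers. Cnp also shares exon sequence with Dnajc7 on the opposite strand.

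The fall of Day 1 and the rise of Day 5 did not involve the same myelin genes throughout. Of the 14 myelin genes that fell on Day 1, 4 turned and 10 faded. Aspa read 22.8, 35.1, 22.4 and 22.8 CPM in the vehicle-treated mice of Day 1 and 3.52 to 15.04 CPM (median 4.82) with FGF1. At Day 5, Aspa was at 38.6 to 57.8 CPM (median 43.4) in the vehicle group and 39.1 to 53.2 CPM (median 47.5) in the FGF1 group. Aspa, which breaks down N-acetylaspartate in oligodendrocytes, therefore fell on Day 1 and showed no difference on Day 5, with a log2 FC of 0.03 (95% interval -0.34 to 0.40). Mog, a surface protein of the outer myelin layer, faded likewise, from -1.62 ± 0.16 to 0.29 ± 0.15, a difference of 1.91 ± 0.22 (adjusted p = 2.5e-09). The lipid synthesis genes Ugt8a and Fa2h, which make the galactolipids of myelin, appeared late, from -0.10 to 0.76 and from -0.08 to 0.50. Trf and Klk6 went the other way, with log2 FCs of 2.23 to 0.34 and 2.61 to 0.14, both higher on Day 1 and faded by Day 5. Mag and the transcription factor gene Myrf were not called on any of the 3 contrasts.

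**Figure D3:**
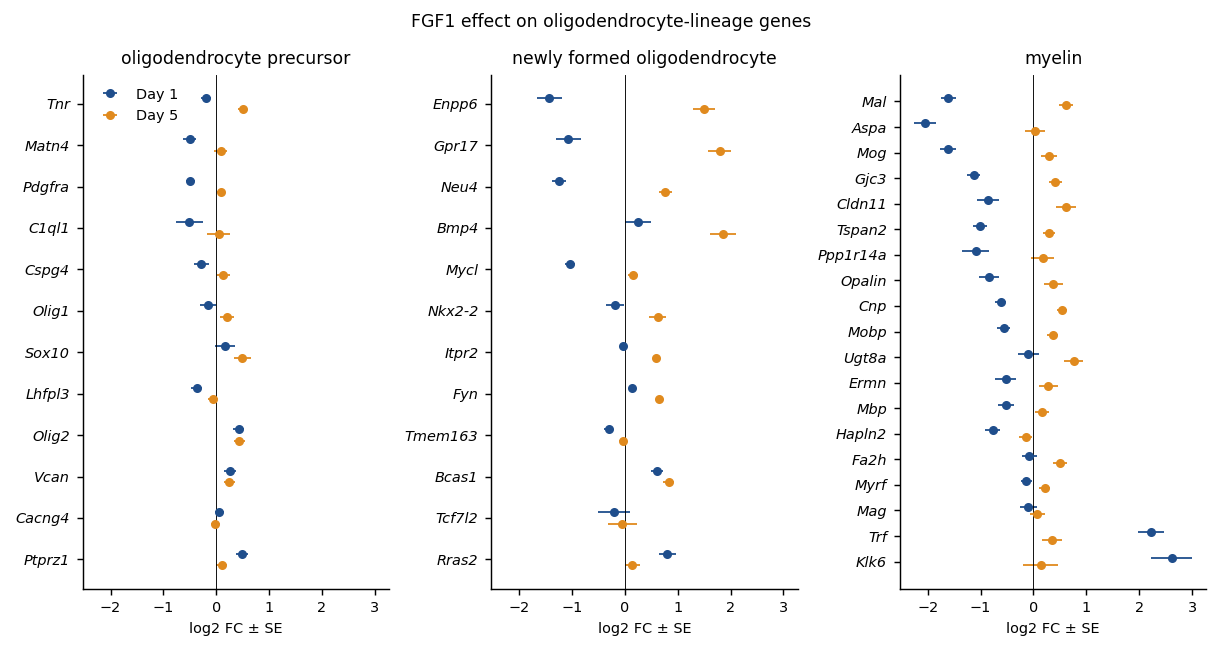
Log2 FC ± SE of FGF1 against vehicle on Day 1 (blue) and Day 5 (orange) for 12 of 12, 12 of 12 and 19 of 20 tested genes of 3 lists of the oligodendrocyte lineage, ordered by the difference between the days. Most myelin genes lie left of 0 on Day 1 and right of 0 on Day 5, except Trf and Klk6, and the precursor genes stay within about 0.5 of 0 on both days.

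Outside the oligodendrocyte lineage, Acss3, an acyl-CoA synthetase of short-chain acids, was lower in all FGF1-treated mice than in any vehicle-treated mouse on Day 1 and higher on Day 5. Its log2 FC moved from -1.91 ± 0.18 to 0.88 ± 0.18, a difference of 2.78 ± 0.26 (adjusted p = 9.4e-12), although it shares exon sequence with Ppfia2 on the opposite strand. Vehicle libraries of Fbln5 on Day 1 held 62.5, 50.3, 49.2 and 49.5 CPM, and FGF1 libraries 15.3 to 24.3 CPM (median 19.9). The Day 5 groups had 17.002 to 24.8 CPM (median 19.7) with vehicle and 25.8 to 61.2 CPM (median 39.6) with FGF1. Fbln5, an elastic fibre protein that was on the list of reactive astrocyte genes, was thus apart on both days, in opposite directions, and went from -1.40 ± 0.16 to 1.08 ± 0.16, a difference of 2.47 ± 0.23 (adjusted p = 5.3e-12). Of the 24 tested genes of that list it was the 1 called lower on Day 1. Nnat read 851, 712, 666 and 720.1 CPM in the vehicle-treated mice of Day 1 and 309 to 559.8 CPM (median 406) with FGF1. For Day 5, Nnat values were 465 to 514 CPM (median 478) without FGF1 and 749 to 986 CPM (median 869) with it. Nnat, an imprinted gene of neuronal and endocrine cells, was lower in all FGF1-treated mice on Day 1 and higher in all of them on Day 5, from -0.83 ± 0.13 to 0.86 ± 0.11, a difference of 1.69 ± 0.17 (adjusted p = 6e-11). Abca1, which exports cholesterol from cells, turned from -0.52 ± 0.11 to 0.71 ± 0.09, a difference of 1.23 ± 0.14 (adjusted p = 2.5e-09), but the turn was not called without Day 1 vehicle replicate 2 or in limma with sample quality weights. Tns3, a focal adhesion adaptor, had the smallest error of the examples given, from -0.57 ± 0.06 to 0.70 ± 0.06, a difference of 1.28 ± 0.09 (adjusted p = 2.9e-16). Ttll3, a tubulin glycine ligase, went from -1.75 ± 0.17 to 0.52 ± 0.16, a difference of 2.26 ± 0.24 (adjusted p = 1.9e-10), but its Day 5 call was lost under 7 alternatives, with values of 0.46 to 0.53 and adjusted p of 0.051 to 0.16, and it shares exon sequence with Arpc4 on the same strand.

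Among the 32 genes, Slc6a13 and Igf2 are typical of meningeal fibroblasts, the cells of the brain's covering. Both belong to the list of 12 fibroblast markers. The summed CPM of the 12, which contains both, ran from 183 to 342 with vehicle and 108 to 549 with FGF1 on Day 1, and from 67.4 to 244 and 115 to 463 on Day 5, with FGF1 replicate 9 of Day 5 low. On Day 1 Slc6a13 stood at 28.96, 31.03, 16.7 and 22.4 CPM in the vehicle-treated mice and at 1.51 to 7.91 CPM (median 3.49) in the FGF1-treated mice. The range of Slc6a13 on Day 5 was 4.28 to 19.7 CPM (median 13.8) with vehicle and 8.64 to 36.1 CPM (median 26.8) with FGF1. Slc6a13 codes for a GABA transporter. Its log2 FC went from -2.71 ± 0.32 to 1.02 ± 0.30, a difference of 3.73 ± 0.44 (adjusted p = 5.9e-09), and the Day 5 call was lost under 4 alternatives, among them without Day 5 vehicle replicate 2 (0.88, adjusted p = 0.093) and without the 2 Day 5 vehicle libraries lowest in fibroblast markers (0.83, adjusted p = 0.17). Igf2, a growth factor of meninges and choroid plexus, went from -1.72 ± 0.55 to 1.22 ± 0.29, a difference of 2.94 ± 0.62 (adjusted p = 0.00028). Its vehicle levels were 0.396 to 1.40 CPM on Day 1 and 9.05 to 49.0 CPM on Day 5, and without the fibroblast-low vehicle libraries its Day 5 effect was 1.02 (adjusted p = 0.053). With limma and sample quality weights, neither its Day 1 effect (-2.38, adjusted p = 0.30) nor its difference (3.78, adjusted p = 0.11) was called. How much the amount of meninges in each sample contributed was not tested. Within the list of 12 fibroblast genes the calls were 4 higher and 5 lower on Day 1, 4 and 0 on Day 5, and 6 and 1 on the difference. The same calls over all genes were 11.5% and 8.05% on Day 1, 1.31% and 0.232% on Day 5, and 7.28% and 8.52% on the difference. The collagen gene Col3a1 was higher on Day 1 and then faded, from 2.42 to 0.87, whereas Lum, a small matrix proteoglycan, persisted, from 2.24 to 1.19, and Islr appeared late, from -0.45 to 1.05. Islr shares exon sequence with Islr2 on the same strand.

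**Figure D4:**
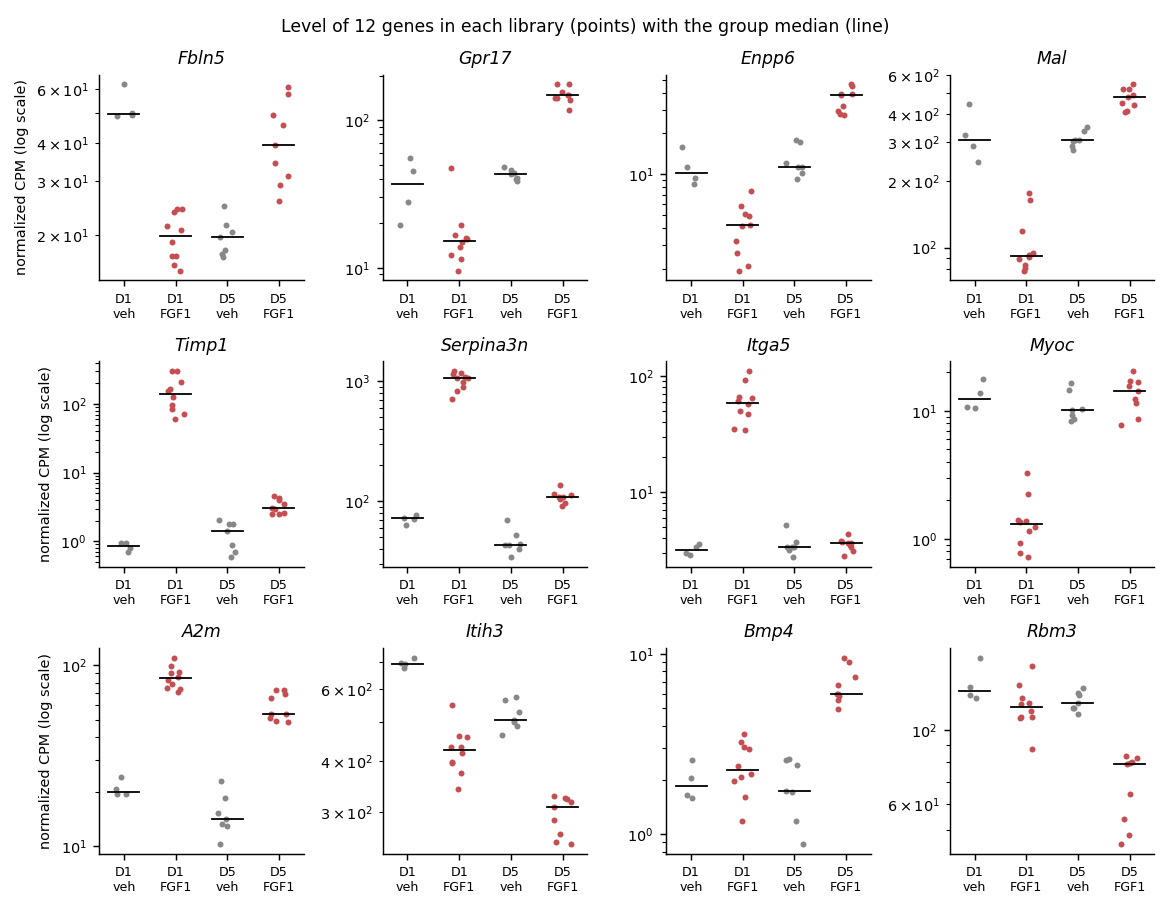
CPM (log axis) of 12 genes in every library, for vehicle (grey) and FGF1 (red) on Day 1 (D1) and Day 5 (D5), with the group median as a line. Fbln5, Enpp6 and Mal lie below vehicle on Day 1 and above it on Day 5, Timp1 and Serpina3n keep a small part of the Day 1 rise, Itga5 and Myoc overlap with vehicle on Day 5, A2m and Itih3 keep their shift, and Bmp4 and Rbm3 move on Day 5 alone.

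Among the effects that became smaller, the reactive astrocyte genes had the lowest median difference of the 40 gene lists (-2.24 on the log2 scale). Of 32 genes on the list 24 were tested: the calls were 20 higher and 1 lower on Day 1, 12 and 0 on Day 5, and 2 and 19 on the difference, with medians of 2.58 on Day 1 and 0.66 on Day 5. Against 8.52% of all genes, 19 of the 24 had a lower effect on Day 5. Of these, 10 were still higher on Day 5 (Gfap, Vim, Serpina3n, Timp1, Cd44, Osmr, Aspg, Cd14, Emp1 and Cd109) and 9 were not called on that day, among them S1pr3, a receptor for sphingosine-1-phosphate (3.38 to 0.27), and Hspb1, a small heat shock protein (4.46 to 0.58, log2 FC from Day 1 to Day 5).

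Timp1, an inhibitor of matrix metalloproteinases (chrX:20870166-20874735), had the largest difference of any gene named here. On Day 1 Timp1 stood at 0.934, 0.7905, 0.698 and 0.957 CPM in the vehicle-treated mice and at 61.1 to 307 CPM (median 142) in the FGF1-treated mice. By Day 5 Timp1 was at 0.5798 to 2.03 CPM (median 1.39) with vehicle and at 2.497 to 4.55 CPM (median 3.06) with FGF1. Neither day showed overlap between FGF1 and vehicle. Its log2 FC shrank from 7.57 ± 0.40 to 1.34 ± 0.41, a difference of -6.23 ± 0.65 (adjusted p = 2.3e-10), and its Day 5 call was lost under 9 alternatives (1.12 to 1.61, adjusted p 0.050 to 0.18). Serpina3n read 77.4, 63.4, 72.5 and 71.3 CPM in the vehicle-treated mice of Day 1 and 706 to 1222 CPM (median 1065) with FGF1. Vehicle-treated mice of Day 5 had 33.98 to 69.995 CPM (median 43.2), and FGF1-treated mice 91.4 to 137 CPM (median 109). Serpina3n, a secreted protease inhibitor, was likewise higher in every FGF1-treated mouse on both days and went from 3.84 ± 0.16 to 1.23 ± 0.12, a difference of -2.61 ± 0.18 (adjusted p = 5.7e-16). Osmr, the receptor for oncostatin M, was apart on both days as well, from 3.31 ± 0.19 to 1.03 ± 0.17, a difference of -2.27 ± 0.24 (adjusted p = 3.4e-10). Emp1, a membrane protein of growing cells, went from 3.67 ± 0.20 to 0.74 ± 0.20, a difference of -2.94 ± 0.27 (adjusted p = 9.2e-12), and its Day 5 call was lost without the 2 vehicle libraries highest in forebrain markers (0.64, adjusted p = 0.13). S100a6, a calcium-binding protein, and Anxa2, a membrane-binding annexin, were higher on both days with the same loss of size (3.12 and 0.64, difference -2.49 ± 0.22, adjusted p = 2.6e-12 for S100a6 and 3.21 and 0.68, difference -2.53 ± 0.20, adjusted p = 4.8e-14 for Anxa2). Over all 39 genes of this reduced, higher pattern the median log2 FC was 2.497 on Day 1 and 0.68 on Day 5, and for 20 of them FGF1 and vehicle did not overlap on Day 5. These genes too were picked by their calls on both days.

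The 300 bases from 250 before to 50 after each RefSeq transcript start (GRCm38.p6) were searched for the AP-1 motif TGANTCA and for the CArG box, CC followed by 6 A or T and GG, both of which read the same on both strands. AP-1 is the dimer of Fos and Jun family proteins, and the CArG box binds serum response factor. A promoter was found for 11167 of the 14221 genes, and 6.07% of these held the AP-1 motif and 1.59% a CArG box. Among the 29 reduced, higher genes with a promoter, 6 (20.7%) held the AP-1 motif: Emp1, Anxa2, Osmr, Clic1, Tor4a and Ecm1. The shares were 62 of 811 (7.65%) among the genes that were higher on Day 1 and faded, and 2 of 22 (9.09%) among those that turned. For the CArG box they were 1 of 29, 20 of 811 and 1 of 22. These are descriptions of letters in a window, not of bound sites. The promoters of 3 reduced genes and that of Dusp5, a faded gene with a pair of adjacent CArG boxes, are shown 5′ to 3′ on the strand of the gene, with AP-1 motifs or CArG boxes in capitals. They lie at chr6:135362681-135362980, plus strand (Emp1), chr9:69453433-69453732, plus strand (Anxa2), chr15:6874264-6874563, minus strand (Osmr) and chr19:53528895-53529194, plus strand (Dusp5). Emp1 has 2 such windows, and only the window with motifs is shown.
Emp1: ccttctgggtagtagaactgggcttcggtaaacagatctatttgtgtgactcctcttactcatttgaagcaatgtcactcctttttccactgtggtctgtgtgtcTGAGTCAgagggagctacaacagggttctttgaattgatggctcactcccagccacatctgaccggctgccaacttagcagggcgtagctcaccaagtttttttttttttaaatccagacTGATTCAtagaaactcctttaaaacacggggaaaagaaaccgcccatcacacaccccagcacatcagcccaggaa
Anxa2: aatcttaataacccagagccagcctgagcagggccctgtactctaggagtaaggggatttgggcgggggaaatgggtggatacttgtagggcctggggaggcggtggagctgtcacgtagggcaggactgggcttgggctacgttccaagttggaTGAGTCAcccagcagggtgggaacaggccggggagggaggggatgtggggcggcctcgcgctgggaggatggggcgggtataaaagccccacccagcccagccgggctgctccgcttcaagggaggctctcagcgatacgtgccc
Osmr: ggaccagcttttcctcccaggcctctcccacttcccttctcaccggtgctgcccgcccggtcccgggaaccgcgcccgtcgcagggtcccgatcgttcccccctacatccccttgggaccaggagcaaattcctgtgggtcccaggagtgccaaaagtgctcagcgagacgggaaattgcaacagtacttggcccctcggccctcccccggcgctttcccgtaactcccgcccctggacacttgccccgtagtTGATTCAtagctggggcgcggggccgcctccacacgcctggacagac
Dusp5: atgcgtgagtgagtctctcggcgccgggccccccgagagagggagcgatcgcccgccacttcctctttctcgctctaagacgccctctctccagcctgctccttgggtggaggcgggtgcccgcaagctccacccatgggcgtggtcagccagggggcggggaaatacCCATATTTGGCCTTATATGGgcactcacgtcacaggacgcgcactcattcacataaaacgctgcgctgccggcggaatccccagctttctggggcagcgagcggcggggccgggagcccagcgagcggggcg

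Genes of the ERK cascade, in contrast to the reactive astrocyte genes, kept nothing that was called on Day 5. For the 17 feedback inhibitors and targets the calls were 14 higher and 0 lower on Day 1, 0 and 0 on Day 5, and 0 and 14 on the difference, with medians of 1.59 on Day 1 and 0.01 on Day 5. Dusp6 read 13.8, 12.5, 13.8 and 13.1 CPM in the vehicle-treated mice of Day 1 and 24.3 to 62.5 CPM (median 55.5) with FGF1. On Day 5 Dusp6 ran from 22.6 to 29.8 CPM (median 24.8) with vehicle and from 22.9 to 30.6 CPM (median 24.8) with FGF1. Dusp6, the phosphatase that switches off cytosolic ERK, was higher in all FGF1-treated mice on Day 1, the lowest being replicate 6, and overlapped with vehicle on Day 5. The effect went from 1.97 ± 0.19 to -0.01 ± 0.16, a difference of -1.99 ± 0.24 (adjusted p = 8.7e-09). Dusp5, its nuclear counterpart, whose promoter is printed above, went from 3.31 ± 0.29 to -0.32 ± 0.27, a difference of -3.63 ± 0.38 (adjusted p = 2.9e-10). The sprouty and spred genes, receptor-level inhibitors of the same cascade, were called on Day 1 in 6 of 6 cases, with Day 5 values between -0.01 and 0.14. Dusp4, Etv1 and Il17rd were not called on any of the 3 contrasts. On Day 5, 1 of the 17 genes had an unadjusted p under 0.05 in edgeR. DESeq2 called 0 of them that day, and likewise 0 in all other lists in which edgeR called 0 on Day 5.

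For the 19 tested immediate early genes the calls were 11 higher and 1 lower on Day 1, 0 and 0 on Day 5, and 0 and 10 on the difference, with medians of 1.26 on Day 1 and 0.02 on Day 5. All genes together gave 11.5% higher on Day 1 and 8.52% lower on the difference. On Day 1 Egr1 stood at 40.6, 25.01, 31.5 and 29.5 CPM in the vehicle-treated mice and at 36.5 to 251 CPM (median 166) in the FGF1-treated mice. Day 5 vehicle libraries held 3.59 to 8.94 CPM (median 4.83) and FGF1 libraries 3.501 to 6.25 CPM (median 5.19). Egr1, a zinc-finger transcription factor, overlapped on Day 1 through replicate 6 alone, which stood at 36.5 CPM when the other FGF1-treated mice stood at 147 or more. It went from 2.37 ± 0.33 to -0.08 ± 0.36, a difference of -2.46 ± 0.48 (adjusted p = 8.7e-05). Junb, Ier2 and Egr3 were also higher on Day 1 and faded, from 2.499 to -0.08, from 2.44 to 0.35 and from 2.84 to -0.87. Nr4a3 went against the list on Day 1, at -0.79 to -0.06 from Day 1 to Day 5. Vehicle libraries of Fosl1 on Day 1 held 0.247, 0.254, 0.582 and 0.711 CPM, and FGF1 libraries 3.79 to 17.3 CPM (median 9.35). At Day 5, Fosl1 was at 3.62 to 5.35 CPM (median 4.195) in the vehicle group and 3.01 to 5.602 CPM (median 4.52) in the FGF1 group. Fosl1, an AP-1 subunit of the ERK target list, went from 4.54 ± 0.36 to 0.02 ± 0.25, a difference of -4.52 ± 0.43 (adjusted p = 1.1e-11). Its vehicle levels differed between the days, and it shares exon sequence with Ccdc85b on the opposite strand.

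The largest faded rises belonged to genes of diverse function. Syt15 read 0.989, 0.536, 0.745 and 0.821 CPM in the vehicle-treated mice of Day 1 and 10.6 to 25.4 CPM (median 22.5) with FGF1. The Day 5 groups had 0.787 to 1.76 CPM (median 1.31) with vehicle and 0.676 to 1.65 CPM (median 1.08) with FGF1. Syt15, a synaptotagmin, was apart from vehicle on Day 1 and overlapped with it on Day 5, from 4.76 ± 0.35 to -0.28 ± 0.36, a difference of -5.04 ± 0.49 (adjusted p = 3.7e-11). Tubb6, a beta-tubulin, went from 4.88 ± 0.24 to 0.24 ± 0.17, a difference of -4.64 ± 0.28 (adjusted p = 1e-17). Itga5 read 3.35, 2.88, 2.98 and 3.61 CPM in the vehicle-treated mice of Day 1 and 34.4 to 111 CPM (median 58.9) with FGF1. For Day 5, Itga5 values were 2.74 to 5.23 CPM (median 3.36) without FGF1 and 2.82 to 4.38 CPM (median 3.62) with it. Itga5, the integrin subunit that binds fibronectin, lost the rise entirely within the error of Day 5, from 4.29 ± 0.25 to 0.00 ± 0.23, a difference of -4.28 ± 0.33 (adjusted p = 3.6e-14), with a Day 5 95% interval -0.47 to 0.48. Spp1, the secreted phosphoprotein osteopontin, ranged widely with FGF1 on Day 1. With vehicle, Spp1 was at 26.8, 32.7, 23.02 and 19.1 CPM on Day 1, and with FGF1 at 112 to 1963 CPM (median 856). The range of Spp1 on Day 5 was 8.56 to 84.6 CPM (median 18.7) with vehicle and 13.01 to 40.8 CPM (median 31.5) with FGF1. It went from 5.18 ± 0.63 to 0.19 ± 0.44, a difference of -4.98 ± 0.71 (adjusted p = 3.7e-07). Over all 1042 genes that were higher on Day 1 and faded, the median log2 FC was 0.92 on Day 1 and 0.04 on Day 5. For 687 of them the 95% interval of the Day 5 effect lay within 0.5 of 0, for 151 it lay above 0 and for 33 below 0, so a loss of the call was not in every case a return to vehicle level.

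Several pathways shared this course. Their counts stand beside 11.5% of all genes higher on Day 1, 1.31% higher on Day 5 and 8.52% lower on the difference. In the STAT3 pathway, 14 genes tested gave 8 higher and 0 lower on Day 1, 2 and 0 on Day 5, and 0 and 6 on the difference. Socs3, its feedback inhibitor, went from 4.50 ± 0.22 to 0.65 ± 0.22, a difference of -3.85 ± 0.31 (adjusted p = 8e-14), with a Day 5 95% interval 0.20 to 1.10, and its Day 5 effect was called under 2 alternatives (0.65 and 0.76, both in limma). Stat3 itself went from 1.69 ± 0.08 to 0.15 ± 0.07, a difference of -1.54 ± 0.11 (adjusted p = 5.9e-16), while Il6st, the shared receptor chain of this cytokine family, persisted (0.53 to 0.51). The 39 matrix and integrin genes gave 18 higher and 4 lower on Day 1, 3 and 0 on Day 5, and 6 and 17 on the difference. Their summed CPM, in which abundant genes weigh most, went the other way: it ran from 8415 to 9024 with vehicle and 7041 to 8306 with FGF1 on Day 1, and from 5027 to 5422 and 5732 to 6061 on Day 5. Tnc, a glycoprotein of remodelling tissue, moved from 3.54 to 0.56 and Plau, the urokinase protease, from 4.18 to 0.26. The 40 ribosome biogenesis genes gave 14 higher and 0 lower on Day 1, 0 and 0 on Day 5, and 0 and 17 on the difference, with medians of 0.40 on Day 1 and -0.03 on Day 5. Npm3, Bysl and Ltv1 were above 1 on the log2 scale on Day 1 and near 0 on Day 5 (from 1.39 to -0.13, from 1.07 to -0.07 and from 1.02 to 0.14). Cytosolic ribosomal protein genes, 78 in number, gave 6 higher and 0 lower on Day 1, 0 and 0 on Day 5, and 0 and 8 on the difference, shares near those of all genes (11.5% higher on Day 1 and 8.52% lower on the difference). On Day 5 the unadjusted p was under 0.05 for 5 of the 40 and 3 of the 78 genes of these lists. The 15 cell cycle genes tested gave 13 higher and 0 lower on Day 1, 2 and 0 on Day 5, and 0 and 9 on the difference: 5 replication licensing genes (Mcm2, Mcm3, Mcm5, Mcm6 and Mcm7) faded, whereas Mki67, a marker of dividing cells, was higher on both days, from 2.90 ± 0.42 to 1.36 ± 0.34, a difference of -1.54 ± 0.52 (adjusted p = 0.024), and Cenpf persisted (0.74 to 0.91). The difference of Mki67 lost its call under 5 alternatives, among them without Day 1 vehicle replicate 2 (-1.35, adjusted p = 0.077).

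Of 15 homeostatic microglia genes the calls were 10 higher and 1 lower on Day 1, 2 and 0 on Day 5, and 1 and 6 on the difference, and Fcrls, a microglial Fc receptor-like gene, was reduced, from 1.83 ± 0.17 to 1.24 ± 0.16, a difference of -0.59 ± 0.22 (adjusted p = 0.044). P2ry12, a purine receptor that resting microglia carry, went the other way on Day 1 and faded, from -0.66 to 0.08. The 12 tested activated phagocyte genes gave 9 higher and 0 lower on Day 1, 1 and 0 on Day 5, and 0 and 6 on the difference. Lgals3, a galectin, moved from 3.59 to 0.30 and Fcgr2b, an inhibitory antibody receptor, from 3.39 to 1.19. Blood-derived leukocyte genes (9 of 18 tested) gave 5 higher and 0 lower on Day 1, 2 and 0 on Day 5, and 0 and 0 on the difference, and their summed CPM ran from 25.8 to 167 in the Day 5 vehicle group, the highest being replicate 2, and from 46.2 to 111 with FGF1. For complement (12 genes) the calls were 6 higher and 1 lower on Day 1, 4 and 0 on Day 5, and 2 and 2 on the difference, for the interferon response (17 genes) 5 higher and 0 lower on Day 1, 0 and 0 on Day 5, and 0 and 3 on the difference, and for MHC class I (13 genes) 2 higher and 0 lower on Day 1, 0 and 0 on Day 5, and 0 and 3 on the difference, where all genes gave 11.5% higher on Day 1 and 8.52% lower on the difference. Day 5 vehicle replicate 2 stood apart here as well, with summed CPM of 484 for complement (197 to 272 in the other 6), 466.05 for the interferon response (163 to 199) and 699.5 for MHC class I (249 to 281). Without it the calls on the difference were 2 higher and 0 lower for complement, 1 and 2 for the interferon response and 0 and 2 for MHC class I.

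**Figure D5:**
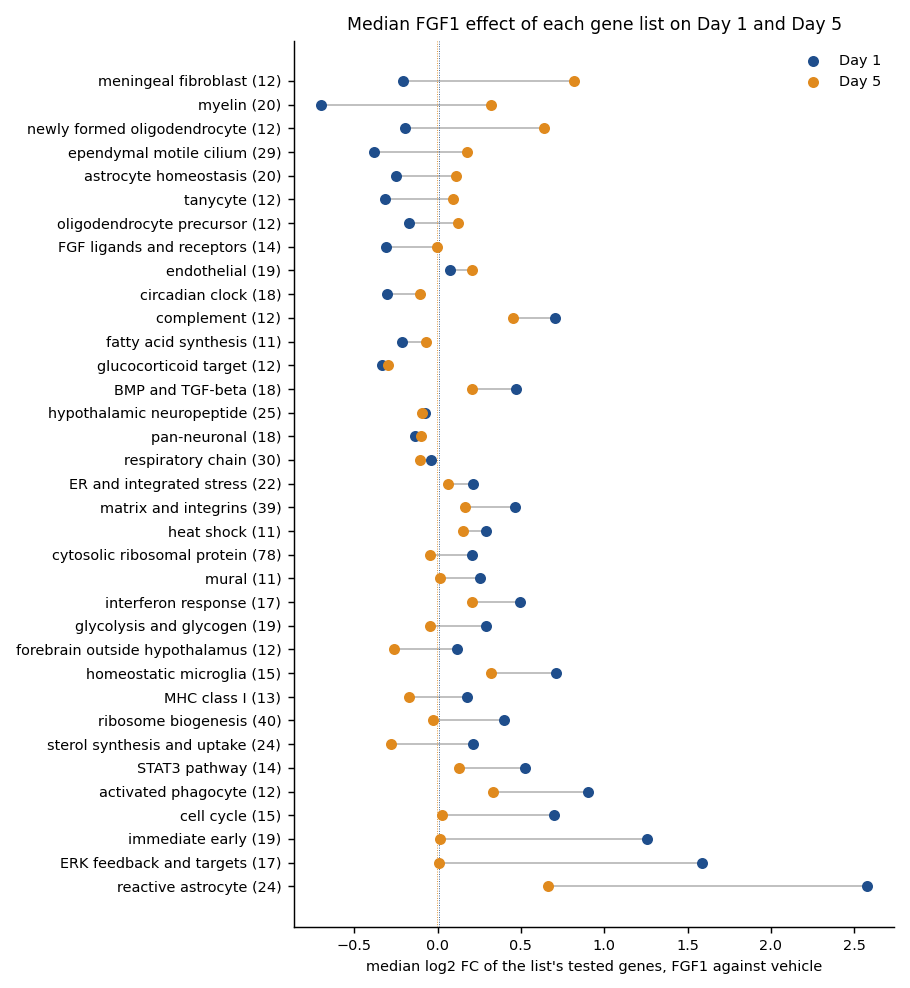
Median log2 FC of FGF1 against vehicle on Day 1 (blue) and Day 5 (orange) for the 35 gene lists with at least 10 tested genes, ordered by the difference between the days. The ERK, immediate early and reactive astrocyte lists lie farthest right on Day 1 and within 1 of 0 on Day 5. Several lists cross from left to right of 0, among them myelin, newly formed oligodendrocyte, meningeal fibroblast, ciliary and astrocyte homeostasis genes.

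Over the 739 genes that were lower on Day 1 and faded, the median log2 FC was -0.85 on Day 1 and 0.06 on Day 5. For 443 the 95% interval of the Day 5 effect lay within 0.5 of 0, for 113 it lay above 0 and for 37 below. Myoc read 10.6, 17.8, 10.6 and 13.9 CPM in the vehicle-treated mice of Day 1 and 0.714 to 3.26 CPM (median 1.29) with FGF1. By Day 5 Myoc was at 8.26 to 16.6 CPM (median 10.1) with vehicle and at 7.72 to 20.5 CPM (median 14.1) with FGF1. Myoc, a secreted glycoprotein of astrocytes and meninges, was apart on Day 1 and overlapped on Day 5, from -3.38 ± 0.23 to 0.29 ± 0.20, a difference of 3.68 ± 0.31 (adjusted p = 5.7e-13). Slc22a6, an organic anion transporter of the meninges, went from -3.73 ± 0.51 to 0.56 ± 0.44, a difference of 4.29 ± 0.68 (adjusted p = 3.3e-06). Fmod, a small matrix proteoglycan, went from -3.36 ± 0.34 to 0.69 ± 0.34, a difference of 4.05 ± 0.49 (adjusted p = 7.2e-09). Another, Ogn, went from -2.83 ± 0.40 to 0.79 ± 0.37, a difference of 3.62 ± 0.55 (adjusted p = 1.3e-06). Slc6a20a, an imino acid transporter, went from -2.74 ± 0.32 to 0.60 ± 0.30, a difference of 3.34 ± 0.44 (adjusted p = 7.6e-08). On Day 5 all 4 had values above 0 that were not called in this fit, whereas in limma with sample quality weights Fmod (0.87, adjusted p = 0.040), Ogn (0.96, adjusted p = 0.031) and Slc6a20a (0.75, adjusted p = 0.046) were. Of these, Slc6a20a shares exon sequence with Ccr9 on the opposite strand.

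Among the 20 astrocyte homeostasis genes the calls were 2 higher and 7 lower on Day 1, 1 and 0 on Day 5, and 10 and 2 on the difference, with medians of -0.25 on Day 1 and 0.11 on Day 5. All genes gave 11.5% higher and 8.05% lower on Day 1, and 7.28% and 8.52% on the difference. The 2 genes higher on Day 1 and the 2 lower on the difference were thus near those shares. Their summed CPM ran from 10488 to 11904 with vehicle and 8018 to 9413 with FGF1 on Day 1, and from 9080 to 9721 and 9858 to 10631 on Day 5. The sums were thus apart on both days, lower with FGF1 on Day 1 and higher on Day 5. On Day 1 Glul stood at 1777, 1588, 1545 and 1928 CPM in the vehicle-treated mice and at 540.1 to 801 CPM (median 605) in the FGF1-treated mice. Vehicle-treated mice of Day 5 had 1400 to 1740 CPM (median 1670), and FGF1-treated mice 1363 to 2037 CPM (median 1612). Glul makes glutamine from the glutamate that astrocytes take up. It was lower in all FGF1-treated mice on Day 1, by -1.46 ± 0.08, adjusted p = 1.3e-19. On Day 5 its log2 FC was 0.02 (95% interval -0.12 to 0.17), which gave a difference 1.48 ± 0.11, adjusted p = 1.4e-14. It shares exon sequence with Teddm2 on the opposite strand. Ntsr2, the astrocytic neurotensin receptor, went from -1.65 ± 0.12 to 0.01 ± 0.11, a difference of 1.66 ± 0.16 (adjusted p = 3.1e-11), and Gjb6, a gap junction connexin of astrocytes, from -1.46 ± 0.09 to 0.13 ± 0.08, a difference of 1.59 ± 0.13 (adjusted p = 9.5e-14). Gja1, the other main astrocyte connexin, also faded, from -0.77 to 0.37, as did the GABA transporter gene Slc6a11, from -0.86 to 0.09, and the potassium channel gene Kcnj10, from -0.54 to 0.10. Sox9, a transcription factor that is active in astrocytes, was higher on Day 1 and faded, from 1.10 to 0.35, so the list did not move one way. Slc1a2 and Aldh1l1, which define the cell type, were not called on any of the 3 contrasts.

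Ciliary genes of the ventricular lining were lower on Day 1 or not called. Of 29 tested genes the calls were 0 higher and 11 lower on Day 1, 1 and 0 on Day 5, and 15 and 0 on the difference, with medians of -0.38 on Day 1 and 0.18 on Day 5. Among all genes 8.05% were lower on Day 1, 1.31% higher on Day 5 and 7.28% higher on the difference. Vehicle libraries of Ccdc153 on Day 1 held 21.1, 17.3, 19.4 and 15.4 CPM, and FGF1 libraries 1.95 to 5.48 CPM (median 3.53). On Day 5 Ccdc153 ran from 7.63 to 13.7 CPM (median 8.56) with vehicle and from 5.79 to 10.8 CPM (median 8.02) with FGF1. Ccdc153, a component of the ciliary axoneme, was apart on Day 1 and overlapped on Day 5, from -2.33 ± 0.21 to -0.19 ± 0.20, a difference of 2.14 ± 0.30 (adjusted p = 2.2e-07). Dynlrb2, a dynein light chain, moved from -1.62 to 0.43 and Dnah12, a dynein heavy chain, from -1.48 to 0.14. Foxj1, the regulator that defines ciliated cells, was not called (from 0.17 to 0.37). The choroid plexus lies on the ventricle as well, and its 7 tested genes (13 listed) gave 0 higher and 2 lower on Day 1, 0 and 0 on Day 5, and 2 and 0 on the difference: Kcnj13, a potassium channel, went from -3.51 ± 0.50 to -0.10 ± 0.42, a difference of 3.42 ± 0.66 (adjusted p = 8.9e-05), and Clic6, an intracellular chloride channel, from -1.31 ± 0.23 to -0.29 ± 0.22, a difference of 1.02 ± 0.32 (adjusted p = 0.014), with summed CPM of 70.4 to 95.9 with vehicle and 48.9 to 77.2 with FGF1 on Day 1. Tanycyte genes (12 of 14 tested) gave 3 higher and 2 lower on Day 1, 1 and 0 on Day 5, and 4 and 4 on the difference: Nes, an intermediate filament of progenitors, moved from 3.65 to 0.33 and Adm, a peptide hormone, from 2.23 to 0.20, while Col23a1 and Frzb, both of tanycytes, were lower on Day 1 and faded, from -1.07 to 0.38 and from -0.67 to 0.10. The choroid plexus and tanycyte counts stand beside 11.5% higher and 8.05% lower on Day 1 over all genes, and 7.28% and 8.52% on the difference. The 4 genes that were lower on both days with a smaller effect on Day 5 were led by Pla2g4e, a phospholipase, from -1.29 ± 0.14 to -0.61 ± 0.14, a difference of 0.68 ± 0.21 (adjusted p = 0.0104), which was apart from vehicle on both days.

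Effects that persisted were smaller in number and moderate in size. The 45 higher genes had medians of 0.80 and 0.71 on the 2 days, and the 19 lower genes -0.72 and -0.66. No called difference does not show equal effects: for 16 of the 64 genes the 95% interval of the difference lay within 0.5 of 0, and the median half-width of these intervals was 0.45. On Day 1 A2m stood at 19.3, 24.02, 20.6 and 19.4 CPM in the vehicle-treated mice and at 71.3 to 109.97 CPM (median 84.6) in the FGF1-treated mice. Day 5 vehicle libraries held 10.2 to 22.9 CPM (median 14.1) and FGF1 libraries 48.4 to 73.05 CPM (median 53.7). A2m, which codes for the broad protease inhibitor alpha-2-macroglobulin (chr6:121635376-121679227), was above all vehicle values on both days. It had log2 FC 2.04 ± 0.16 (SE) on Day 1 and 1.96 ± 0.14 on Day 5, difference -0.07 ± 0.20, adjusted p = 0.84, and the difference had a 95% interval -0.47 to 0.33. Clu, the chaperone clusterin, was apart on both days too, log2 FC 0.82 ± 0.10 (SE) on Day 1 and 0.88 ± 0.08 on Day 5, difference 0.06 ± 0.12, adjusted p = 0.78. Ccdc80, a matrix protein, had log2 FC 0.77 ± 0.14 (SE) on Day 1 and 0.74 ± 0.13 on Day 5, difference -0.03 ± 0.19, adjusted p = 0.92. Olfml3, a secreted protein of microglia, had log2 FC 1.43 ± 0.14 (SE) on Day 1 and 0.99 ± 0.12 on Day 5, difference -0.43 ± 0.18, adjusted p = 0.063, and Fam83d, a protein of the mitotic spindle, log2 FC 1.75 ± 0.23 (SE) on Day 1 and 1.07 ± 0.20 on Day 5, difference -0.69 ± 0.30, adjusted p = 0.0796. The difference of Fam83d passed the test without Day 1 FGF1 replicate 6 (-0.78, adjusted p = 0.031).

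Itih3 read 695, 694, 679 and 718 CPM in the vehicle-treated mice of Day 1 and 342 to 550.5 CPM (median 426) with FGF1. At Day 5, Itih3 was at 465 to 574 CPM (median 505) in the vehicle group and 249.7 to 328 CPM (median 309) in the FGF1 group. Itih3, a heavy chain that stabilises hyaluronan, was lower in every FGF1-treated mouse of either day, log2 FC -0.70 ± 0.11 (SE) on Day 1 and -0.81 ± 0.10 on Day 5, difference -0.11 ± 0.15, adjusted p = 0.64. Vehicle libraries of Kirrel2 on Day 1 held 3.38, 4.55, 3.68 and 4.404 CPM, and FGF1 libraries 0.704 to 2.44 CPM (median 1.29). The Day 5 groups had 2.74 to 6.96 CPM (median 5.56) with vehicle and 0.977 to 2.55 CPM (median 1.73) with FGF1. Kirrel2, an adhesion protein, gave log2 FC -1.64 ± 0.21 (SE) on Day 1 and -1.68 ± 0.21 on Day 5, difference -0.04 ± 0.32, adjusted p = 0.94, and Slc13a5, the citrate transporter, log2 FC -1.36 ± 0.15 (SE) on Day 1 and -1.27 ± 0.15 on Day 5, difference 0.09 ± 0.22, adjusted p = 0.797. Hsd11b1, the enzyme that regenerates active glucocorticoid, had log2 FC -0.74 ± 0.14 (SE) on Day 1 and -1.14 ± 0.14 on Day 5, difference -0.39 ± 0.20, adjusted p = 0.14. Cirbp, a cold-inducible RNA-binding protein, had log2 FC -0.72 ± 0.13 (SE) on Day 1 and -0.66 ± 0.11 on Day 5, difference 0.06 ± 0.17, adjusted p = 0.84. Among vessel genes Vwf, the clotting factor carrier, persisted higher (0.88 to 0.77) and Mfsd2a, the lipid transporter of the blood-brain barrier, persisted lower (-0.70 to -0.53). Over the 19 endothelial genes the calls were 5 higher and 3 lower on Day 1, 2 and 1 on Day 5, and 1 and 1 on the difference, the last no more than the 7.28% and 8.52% of all genes. Mural genes, 11 tested, gave 3 higher and 2 lower on Day 1, 0 and 0 on Day 5, and 2 and 3 on the difference. The 1 gene whose effect grew, the long non-coding RNA 2900052N01Rik, went from -0.63 ± 0.13 to -1.35 ± 0.13, a difference of -0.72 ± 0.19 (adjusted p = 0.0031), but without Day 1 vehicle replicate 2 its Day 1 effect was -0.47 (adjusted p = 0.0081) and below the fold threshold.

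Effects that appeared late were nearly all rises: 48 of the 50 genes were higher on Day 5, with median log2 FCs of -0.15 on Day 1 and 0.66 on Day 5. On Day 1 Bmp4 stood at 1.65, 1.58, 2.58 and 2.05 CPM in the vehicle-treated mice and at 1.19 to 3.58 CPM (median 2.27) in the FGF1-treated mice. For Day 5, Bmp4 values were 0.878 to 2.62 CPM (median 1.74) without FGF1 and 4.97 to 9.53 CPM (median 6.01) with it. Bmp4 (chr14:46383520-46390669), the growth factor already named among the newly formed oligodendrocyte genes, overlapped with vehicle on Day 1 and lay wholly above it on Day 5, from 0.25 ± 0.25 to 1.85 ± 0.25, a difference of 1.61 ± 0.35 (adjusted p = 0.00041). Zfp488 read 3.82, 4.07, 5.61 and 5.63 CPM in the vehicle-treated mice of Day 1 and 2.33 to 5.704 CPM (median 3.52) with FGF1. The range of Zfp488 on Day 5 was 3.93 to 7.63 CPM (median 5.14) with vehicle and 8.14 to 11.6 CPM (median 9.37) with FGF1. Zfp488, an oligodendrocyte transcription factor, overlapped on Day 1 and was apart on Day 5, from -0.49 ± 0.14 to 0.86 ± 0.14, a difference of 1.35 ± 0.20 (adjusted p = 5.3e-07). Its Day 1 effect was called lower under 8 alternatives (-0.61 to -0.51), DESeq2 among them, and Zfp488 is then a gene that turned. Gpr50, an orphan receptor of tanycytes, went from -0.44 ± 0.14 to 0.90 ± 0.15, a difference of 1.34 ± 0.20 (adjusted p = 1.3e-06), and its Day 1 effect was called lower under 3 alternatives (-0.57 to -0.52), which would make it a turn. Slc7a11, the cystine importer that feeds glutathione synthesis, went from -0.27 ± 0.18 to 0.93 ± 0.16, a difference of 1.204 ± 0.24 (adjusted p = 0.00012). Gm29683, a gene of unknown function, went from -0.33 ± 0.20 to 0.81 ± 0.19, a difference of 1.14 ± 0.27 (adjusted p = 0.0013). Aqp4, the water channel of astrocyte endfeet, was late in this fit, yet without Day 1 vehicle replicate 2 its difference was 0.48 (adjusted p = 0.10). Without that mouse its Day 1 effect was called higher (0.501, adjusted p = 0.021), which would make it a gene that persisted.

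Rbm3 read 135, 125, 165 and 127 CPM in the vehicle-treated mice of Day 1 and 87.8 to 156 CPM (median 117) with FGF1. By Day 5 Rbm3 was at 112 to 134 CPM (median 121) with vehicle and at 45.4 to 83.5 CPM (median 78.9) with FGF1. Rbm3, a cold-inducible RNA-binding protein like Cirbp, was lower in all FGF1-treated mice on Day 5 and not on Day 1, from -0.22 ± 0.12 to -0.84 ± 0.10, a difference of -0.62 ± 0.16 (adjusted p = 0.0025). The other late fall was that of Htr3a, a serotonin-gated channel, from 0.10 ± 0.15 to -0.51 ± 0.15, a difference of -0.60 ± 0.22 (adjusted p = 0.035). For the 18 BMP and TGF-beta genes, to which Bmp4 belongs, the calls were 8 higher and 2 lower on Day 1, 2 and 0 on Day 5, and 3 and 6 on the difference. Id3, a BMP target, persisted (0.77 to 1.09). The 14 FGF ligands and receptors gave 3 higher and 3 lower on Day 1, 0 and 1 on Day 5, and 2 and 3 on the difference, against 11.5% and 8.05% of all genes on Day 1 and 7.28% and 8.52% on the difference: Fgfr1 was higher on Day 1 and faded (0.87 to 0.11), Fgf1 itself was lower and faded (-0.57 to -0.01), and Fgfbp3, an FGF carrier, persisted lower (-0.68 to -0.73).

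For 340 genes the difference was called although neither day's effect was, 212 of them higher and 128 lower on the difference. The median difference was 0.60 for the higher and -0.56 for the lower ones. Hdac8, a histone deacetylase, lay above that, as its effect went from -0.48 ± 0.07 to 0.43 ± 0.07, a difference of 0.91 ± 0.10 (adjusted p = 9e-10). Hdac8 read 26.3, 29.5, 24.6 and 29.2 CPM in the vehicle-treated mice of Day 1 and 16.99 to 23.002 CPM (median 18.98) with FGF1. Vehicle-treated mice of Day 5 had 17.4 to 23.3 CPM (median 19.996), and FGF1-treated mice 24.9 to 29.8 CPM (median 27.2). The groups were apart on both days, in opposite directions, with each effect just under the fold threshold. Its Day 1 effect was called under 8 alternatives, DESeq2 among them. Over all 340 genes, 141 to 307 kept this pattern under the alternatives with a fold threshold, the fewest without Day 1 vehicle replicate 2. The fit with no filter on low counts is left aside here, as it repeats the main fit. Rftn2, a lipid raft protein, went from -0.48 ± 0.09 to 0.47 ± 0.08, a difference of 0.96 ± 0.12 (adjusted p = 2.7e-08). Cyp4f14, a cytochrome P450, went from -0.48 ± 0.11 to 0.45 ± 0.10, a difference of 0.93 ± 0.15 (adjusted p = 6.4e-06). The Day 1 effects of these were called under 8 and 7 alternatives, and the Day 5 effects under 4 and 1. Tbx18, a transcription factor of mural cells and meninges, went from -0.36 ± 0.25 to 0.68 ± 0.25, a difference of 1.03 ± 0.35 (adjusted p = 0.023). Zfp808, a zinc-finger gene, went from -0.45 ± 0.25 to 0.51 ± 0.22, a difference of 0.96 ± 0.33 (adjusted p = 0.028). Without Day 1 vehicle replicate 2 both differences lost the call (0.66, adjusted p = 0.19 for Tbx18 and 0.68, adjusted p = 0.17 for Zfp808).

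Among these genes were 6 of the sterol pathway (Hmgcs1, Sqle, Idi1, Cyp51, Hsd17b7 and Srebf2). Of 24 sterol genes tested (25 listed) the calls were 2 higher and 1 lower on Day 1, 0 and 0 on Day 5, and 0 and 8 on the difference, with medians of 0.21 on Day 1 and -0.28 on Day 5. Hsd17b7 read 13.96, 17.8, 28.4 and 17.01 CPM in the vehicle-treated mice of Day 1 and 19.9 to 33.02 CPM (median 23.4) with FGF1. On Day 5 Hsd17b7 ran from 32.1 to 40.4 CPM (median 33.5) with vehicle and from 20.3 to 27.03 CPM (median 25.5) with FGF1. Hsd17b7, an enzyme of late sterol synthesis, overlapped on Day 1 and was lower with FGF1 in all mice of Day 5, from 0.39 ± 0.15 to -0.48 ± 0.13, a difference of -0.88 ± 0.20 (adjusted p = 0.000703). Msmo1, a sterol demethylase, was called on Day 1 and faded, from 0.88 ± 0.10 to -0.38 ± 0.08, a difference of -1.26 ± 0.13 (adjusted p = 1.2e-10). Cyp51, another demethylase, moved from 0.44 to -0.27, Idi1 from 0.20 to -0.35 and Srebf2, the pathway's regulator, from 0.47 to -0.10. Against 8.52% of all genes, 8 of 24 members had a lower effect on Day 5. Although 0 were called on Day 5 alone, 19 of the 24 had an unadjusted p under 0.05 on that day. The 11 fatty acid synthesis genes gave 0 higher and 1 lower on Day 1, 0 and 0 on Day 5, and 1 and 0 on the difference. Their summed CPM was nevertheless lower with FGF1 on both days without overlap, at 3853 to 4361 with vehicle and 3012 to 3682 with FGF1 on Day 1 and at 3993 to 4292 and 3230 to 3878 on Day 5.

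Some calls, in this pattern and others, were lost when 1 or 2 libraries were left out. On Day 1 Crym stood at 9.31, 9.85, 7.84 and 8.45 CPM in the vehicle-treated mice and at 11.5 to 21.2 CPM (median 17.9) in the FGF1-treated mice. Day 5 vehicle libraries held 3.62 to 40.3 CPM (median 17.1) and FGF1 libraries 5.64 to 23.3 CPM (median 11.3). Crym, a thyroid hormone-binding protein that tanycytes and forebrain neurons express, went from 0.97 ± 0.44 to -0.78 ± 0.38, a difference of -1.76 ± 0.58 (adjusted p = 0.021). Kcnh3, a forebrain potassium channel, went from 0.82 ± 0.47 to -0.90 ± 0.39, a difference of -1.72 ± 0.61 (adjusted p = 0.032). Their Day 5 vehicle values spread widely, beside forebrain sums that were highest in the same group, and without the 2 vehicle libraries highest in those sums neither was called (-1.54, adjusted p = 0.058 for Crym and -1.47, adjusted p = 0.090 for Kcnh3). Both differences thereby moved by less than their SE. Kcnh3 also lost its call without Day 1 vehicle replicate 2 (-1.53, adjusted p = 0.092). Its Day 5 effect was called lower in limma with sample quality weights (-0.82), with the 30 libraries alone (-0.89) and with thinned counts (-0.92). With the 30 libraries alone its Day 1 effect was also called higher (0.77, adjusted p = 0.030), a turn from higher to lower. The Day 1 effect of Crym was called higher with the 30 libraries alone (0.92) and with thinned counts (1.10). The 12 forebrain genes themselves gave 1 higher and 1 lower on Day 1, 0 and 0 on Day 5, and 1 and 1 on the difference, which is about the share over all genes: Drd1, a dopamine receptor, moved from 1.07 to -0.87 and Ppp1r1b, a dopamine-regulated phosphatase inhibitor, from -2.41 to -0.91, in opposite directions. The Day 5 effect of Drd1 was called lower under 6 alternatives (-1.08 to -0.72, adjusted p 0.0076 to 0.045), among them the 30 libraries alone, and in 5 of these Drd1 turned from higher to lower. The difference of Ppp1r1b lost its call under 3 alternatives (1.23 to 1.47, adjusted p 0.051 to 0.096), 2 of which left out 1 mouse, vehicle replicate 1 of Day 1 or vehicle replicate 2 of Day 5. Igtp, an interferon-induced GTPase, was at 39.1 CPM in Day 5 vehicle replicate 2 and at 3.53 to 5.91 CPM in the other 6, and its difference of -1.19 fell to -0.13 (adjusted p = 0.73) without that mouse. Gimap6, a GTPase of lymphocytes and endothelium, went from 0.48 ± 0.16 to -0.33 ± 0.16, a difference of -0.82 ± 0.22 (adjusted p = 0.0043).

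Of 18 pan-neuronal genes 0 were called on any of the 3 contrasts by edgeR, 4, 2 and 3 had an unadjusted p under 0.05 on Day 1, Day 5 and the difference, and DESeq2 called 2, 0 and 0. The 18 differences ran from -0.48 to 0.32. Vehicle libraries of Snap25 on Day 1 held 1495, 1990, 1459 and 1538 CPM, and FGF1 libraries 897 to 1454 CPM (median 1180). At Day 5, Snap25 was at 797 to 1007 CPM (median 831) in the vehicle group and 655 to 849.95 CPM (median 764) in the FGF1 group. Snap25, a synaptic fusion protein, was nearest the threshold on Day 1, with a difference of 0.32 (95% interval 0.02 to 0.62). Of 25 tested neuropeptide genes (28 listed) the calls were 2 higher and 2 lower on Day 1, 0 and 0 on Day 5, and 0 and 0 on the difference, with 2 at an unadjusted p under 0.05 on the difference and 0 called by DESeq2. The Day 1 counts were near the shares over all genes, 11.5% higher and 8.05% lower. On Day 1 Pomc stood at 7.198, 4.26, 4.93 and 7.88 CPM in the vehicle-treated mice and at 9.66 to 38.1 CPM (median 18.5) in the FGF1-treated mice. The Day 5 groups had 5.595 to 10.01 CPM (median 6.84) with vehicle and 5.89 to 17.8 CPM (median 7.89) with FGF1. Pomc codes for the precursor of the melanocortins that limit feeding. On Day 1 every FGF1-treated mouse was above every vehicle-treated mouse, on Day 5 the groups overlapped, and the difference missed the threshold, log2 FC 1.71 ± 0.47 (SE) on Day 1 and 0.38 ± 0.42 on Day 5, difference -1.33 ± 0.62, adjusted p = 0.11. The difference had a 95% interval -2.57 to -0.08. It was called under 2 alternatives, the fit on the 30 libraries alone (-1.27, adjusted p = 0.0094) and thinned counts without Day 1 FGF1 replicate 1 (-1.29, adjusted p = 0.012). Npy, the feeding peptide of the opposing neurons, was called lower on Day 1, log2 FC -0.61 ± 0.23 (SE) on Day 1 and -0.17 ± 0.22 on Day 5, difference 0.44 ± 0.32, adjusted p = 0.33, a call that 5 alternatives lost, and Agrp, made by the same cells, had a difference -0.03 ± 0.44, adjusted p = 0.97. Gal and Pmch were called on Day 1 alone, from 0.78 to 0.36 and from -0.55 to -0.14.

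The remaining lists were mixed or held few calls. Over all 40 lists the summed CPM lay above vehicle without overlap for 9 and below for 4 on Day 1, and above for 9 and below for 5 on Day 5. The shares over all genes to read these counts against are 11.5% higher and 8.05% lower on Day 1 and 7.28% and 8.52% on the difference. The 19 glycolysis and glycogen genes gave 6 higher and 1 lower on Day 1, 0 and 0 on Day 5, and 1 and 7 on the difference, with the lactate transporter gene Slc16a3 moving from 1.498 to 0.14. The 18 circadian clock genes gave 1 higher and 6 lower on Day 1, 0 and 0 on Day 5, and 4 and 2 on the difference, with Ciart moving from -1.47 to -0.44. Their summed CPM was lower with FGF1 on both days without overlap, at 1628 to 1745 with vehicle and 1286 to 1450 with FGF1 on Day 1 and at 1342 to 1442 and 1248 to 1321 on Day 5. The 12 glucocorticoid target genes gave 2 higher and 3 lower on Day 1, 0 and 0 on Day 5, and 3 and 2 on the difference, with Tsc22d3 and Fkbp5 in opposite directions on Day 1, from -1.36 to -0.45 and from 0.73 to -0.12. For ER and integrated stress (22 genes) the calls were 5 higher and 2 lower on Day 1, 1 and 0 on Day 5, and 3 and 2 on the difference, and for heat shock (11 genes) 3 higher and 0 lower on Day 1, 0 and 0 on Day 5, and 0 and 1 on the difference. Of 3 metallothionein genes, Mt1 and Mt2, which bind zinc, were higher on Day 1 and faded, from 1.47 to 0.42 and from 1.81 to 0.59, and Mt3 was not called. The 30 respiratory chain genes, the 4 red blood cell genes and the 2 pituitary genes tested gave 0 calls on the 3 contrasts by edgeR and by DESeq2. On the difference 2, 1 and 0 of them had an unadjusted p under 0.05. Of the respiratory chain genes 6 had one on Day 1 and 11 on Day 5, and their summed CPM on Day 5 ran from 5022 to 5422 with vehicle and 4493 to 5019 with FGF1, with no overlap.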

How the data were processed

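Strand-specific mRNA libraries of the hypothalamus, 1 per mouse, were sequenced by the authors, who aligned the reads with STAR. The build is given as GRCh38 in the submitters' processing notes, a human name in a mouse study, and the counting program and its strand setting are not given in the sources used here. The deposited values are raw counts of reads per gene for 14221 gene symbols. All of them had at least 307 counts over the 47 libraries, and the filter on low counts removed 0. Columns were tied to samples by their labels.

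Counts were scaled by TMM and fitted with edgeR's quasi-likelihood test over all 47 libraries in 7 groups (R 4.3.3, edgeR 4.0.16), without covariates, because day and preparation coincide. The contrasts were FGF1 against non-diabetic vehicle on Day 1, the same on Day 5, and their difference. Nothing in the labels says that replicates came from separate litters or cages, so p-values measure the spread between these mice. In simulated data for the difference over 14221 genes, 82% of the 100 genes changed by 1 on the log2 scale and 98% of the 100 changed by 1.5 were called, with 9 false calls. Alternatives used DESeq2 1.42.0 and limma 3.58.1, other normalizations and filters, thinned counts, the vehicle mice labelled diabetic on Day 5, and sets of libraries left out. The fit on thinned counts also left out Day 1 FGF1 replicate 1 and the groups not compared here. Sample quality weights and quantile normalization were used with limma in place of edgeR.

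Named genes were, for each pattern and direction, the 5 with the largest difference (for persisted genes, the largest smaller effect) among those with a mean of at least 5 CPM in 1 group and no overlap on the days called, then up to 4 called members of each gene list with the largest difference, and genes of interest chosen with earlier results known. Some genes are not reported here. Defining members of a list are given where they were not called. Other genes named, such as Nnat, Abca1, Tns3, Aspa, Emp1 and Snap25, were chosen after their values were seen. Patterns, lists and the part of the data examined were chosen with earlier results of these data known. Gene positions are from GENCODE for GRCm38, in which 14180 symbols were found, and promoter sequences are from RefSeq. Levels are CPM after TMM scaling. The precision of Day 1 rests on 4 vehicle mice and 1 shallow library among 10, and intervals are 95% intervals of the fit.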

Additional observations from a re-analysis of the deposited data

Results flagged for a closer look

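The difference between the days was itself tested, and it was called for 1035 genes with a higher and 1212 with a lower FGF1 effect on Day 5. Apart from these, 29 groups held 1 mouse far from all others of its group, by Dixon's test, out of 352 groups looked at over 82 genes and the marker sums; chance flags about 1 in 20 groups, or 17.6 here. All values are CPM.

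In Day 1 FGF1 replicate 6, Gpr17 was at 47.7 (others 9.56 to 19.6), Syt15 at 10.6 (17.8 to 25.4), Tubb6 at 20.3 (33.9 to 54.8), Dusp6 at 24.3 (43.2 to 62.5), Egr1 at 36.5 (147 to 251) and Gimap6 at 5.22 (7.07 to 9.82). Leaving this mouse out gave 2319 differences. In replicate 9 of the same group, Zfp808 was at 0.257 (0.796 to 1.66).

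In Day 1 vehicle replicate 2, Aspa was at 35.1 (22.4 to 22.8), Tbx18 at 7.76 (3.37 to 3.82) and Gm29683 at 3.84 (2.77 to 2.93). Fbln5 was at 62.5 in replicate 1 (49.2 to 50.3), Cyp4f14 at 6.77 in replicate 3 (7.86 to 8.10) and the summed red blood cell markers at 7.88 in replicate 4 (4.52 to 4.79).

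In Day 5 vehicle replicate 2 the summed leukocyte markers were at 167 (25.8 to 52.0), Igtp at 39.1 (3.53 to 5.91), Glul at 1400.2 (1654 to 1739), Kirrel2 at 2.74 (5.23 to 6.96), Cirbp at 117 (128 to 137) and 2900052N01Rik at 46.0 (60.4 to 72.8). The last 3 are genes that FGF1 lowered on that day. Hsd17b7 was at 40.4 in replicate 1 (32.1 to 34.4).

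In Day 5 FGF1 replicate 9, which was also lowest of its group (65.9) in the sum of 7 fibroblast markers other than these, Igf2 and Fmod, Slc6a13 was at 8.64 (18.8 to 36.1), Slc22a6 at 1.199 (5.51 to 20.5) and Ogn at 6.49 (22.3 to 50.8). In replicate 4, Acss3 was at 18.4 (11.8 to 14.3), Neu4 at 27.4 (19.0 to 22.8), Gjb6 at 137 (97.9 to 115) and Msmo1 at 78.0 (95.5 to 109.8). Slc7a11 was at 326 in replicate 6 (185 to 239), and Ppp1r1b at 61.6 in replicate 3 (16.9 to 30.1).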

How the results depend on the processing

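Of the 2247 genes with a called difference, 886 were called in every one of the 20 alternatives that kept the fold threshold, and 8 of the 32 turned, 638 of the 1781 faded, 16 of the 43 reduced, 17 of the 64 persisted and 11 of the 50 late genes kept their pattern in all of them. Differences of the 82 genes chosen for full statistics kept their direction in all alternatives, and 1566 of these repeats also kept their side of the threshold, with 41 calls lost and 3 gained. Among the 20, the fit with no filter on low counts repeats the main fit, because the filter removed 0 genes. Its agreement was fixed in advance and is contained in these numbers. No paired analysis was possible because the labels give no replicate numbers that groups share; the numbers used here only name mice in accession order. Shallow counts in 1 Day 1 library limit what a strict filter can test and there were 4 vehicle mice on Day 1. The share of higher calls among the differences ran from 43.4% to 54.7% (46.1% as reported). The cause of the following changes was not tested, except that a stricter filter tests fewer genes.

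With the Day 5 vehicle mice labelled diabetic as control, 335 genes were higher and 71 lower on Day 5, 55 turned from lower to higher, 1 from higher to lower, 2 grew, 131 persisted and 83 were late. With both vehicle groups of Day 5 merged, 313 were higher and 59 lower on Day 5, 2 turned from higher to lower, 68 were reduced, 2 grew and 107 persisted. A minimum of 10 counts in every library gave 1402 differences (609 higher, 793 lower), 1035 higher and 547 lower genes on Day 1, 12 lower on Day 5, 16 turned from lower to higher, 1070 faded, 40 persisted, 32 late and 436 unresolved. Without a fold threshold there were 3784 differences (1770 higher, 2014 lower), 3322 higher and 3074 lower genes on Day 1, 462 and 199 on Day 5, 110 turned from lower to higher and 17 from higher to lower, 3267 faded, 117 reduced, 5 grew, 217 persisted, 96 late, 172 with the difference alone and 2762 unresolved. Limma with sample quality weights gave 350 higher and 88 lower genes on Day 5, 107 persisted and 3 from higher to lower. Limma with quantile normalization gave 137 lower on Day 5, 99 late and 3 from higher to lower. The 30 libraries alone gave 3 from higher to lower, and counts thinned without Day 1 FGF1 replicate 1 gave 2. Without the 2 deepest Day 5 FGF1 libraries 21 genes were lower on Day 5, and without the 2 vehicle libraries lowest in fibroblast markers 1 turned from higher to lower and 2 grew. When 1 mouse was left out, the genes from higher to lower ranged from 0 to 1 and those that grew from 0 to 1.

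The median difference of the blood-derived leukocyte genes, -0.59 as reported, was 0.27 with the diabetic label, 0.58 with the strict filter, 0.12 in limma with sample weights, 0.85 in limma with quantile normalization, 0.33 without the fibroblast-low libraries and 0.36 without Day 5 vehicle replicate 2. It was 0.016 for homeostatic microglia with the diabetic label, 0.049 (limma, quantile) and 0.019 (thinned without Day 1 FGF1 replicate 1) for mural genes, -0.51 for fibroblast and -0.49 for BMP and TGF-beta genes with the strict filter, and -0.23 for complement without Day 1 vehicle replicate 2, each opposite in sign to the reported value. When 1 mouse was left out, the leukocyte median ranged from -0.61 to 0.36 and the complement median from -0.23 to 0.13.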
